A study of Mus musculus with 16 samples.

Results

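The transcripts described here are those of the mouse mitochondrial genome, measured in cultured liver cells given itaconate, lipid or both. Their genes were taken by symbol, as every gene of the expression table whose name starts with mt-, which gave 37 of 55450 genes: 13 that encode proteins, 2 ribosomal RNAs (rRNAs) and 22 transfer RNAs (tRNAs). All 37 lie on chromosome M of GRCm38 (mm10), and they are all the genes of the table on that chromosome. RNA came from primary hepatocytes of wild-type mice, on a C57BL/6J background per the study's methods, whose reporting form describes its mice as male young adults. All cells were kept overnight in DMEM with serum and insulin-transferrin-selenium. They were left untreated or were given 10 mM sodium itaconate, a chemically defined mixture of fatty acids and cholesterol diluted 10-fold (called lipid here), or both. Each of the 4 groups has 4 libraries, lettered A to D, and every letter contributes 1 library to each treatment. The labels do not say whether a letter is an animal or a culture, so p values measure the spread between these libraries, which may be technical. The libraries were made by capture of polyadenylated RNA with a stranded kit.

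The mitochondrial genome is a small circle that is copied into RNA from both strands as long transcripts. These are cut at the tRNAs that punctuate them into messages for 13 membrane proteins of the respiratory chain and the ATP synthase, and into the rRNAs of the mitochondrial ribosome. All other subunits of these complexes are encoded in the nucleus. Hepatocytes are rich in mitochondria, in which fatty acids are oxidised and electrons are passed to complexes I, III and IV. Itaconate is made from cis-aconitate in the mitochondria of activated macrophages. The study sequenced RNA to ask whether itaconate changed gene expression in hepatocytes with and without lipid, and the comparisons below put that question to the organelle's own genes.

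Total expected counts ran from 22346049 to 35512004 per library (median 27719372). Values are given as CPM (counts of a gene scaled to a common library size, with TMM normalization). Hepatocyte markers such as *Alb* summed to between 32244 and 56076 CPM per library, with all 9 of them expressed. The 8 macrophage markers summed to 158 to 287 CPM without lipid and to 215 to 327 CPM with it, most of it *Cd68* (mean 218 CPM). The 6 endothelial markers summed to 11.2 to 22.5 CPM. Of the stellate cell markers (16.2 to 25.5 CPM) nearly all was *Reln*, and of the red blood cell markers (24.6 to 38.0 CPM) nearly all was *Alas2*. The 6 cholangiocyte markers summed to 572 to 1169 CPM without lipid and to 335 to 645 CPM with it, from *Spp1* and *Sox9* (means 529 and 112 CPM), with *Epcam*, *Krt19* and *Krt7* at means of 0.298, 0.224 and 0.00459 CPM and *Cftr* at 0 counts in every library. The part of other cells in the values below was not tested, and in bulk RNA a smaller number of cells of a type cannot be told apart from less RNA per cell.

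Before the levels can be read, one property of these genes has to be shown. Pieces of the mitochondrial genome have been copied into nuclear chromosomes over evolution, and a read from an organelle transcript can fit such a copy as well as its source. In the GENCODE M21 transcripts, 15 nuclear genes shared a stretch of at least 50 identical bases with a mitochondrial gene. Of these, 8 had a mean of at least 1 CPM. A row of 7 neighbouring pseudogenes on the minus strand of chromosome 1 (chr1:24611535-24616197, 4663 bases) accounted for nearly all of the counts and followed the order of *mt-Co1*, *mt-Co2*, *mt-Atp6*, *mt-Co3*, *mt-Nd3*, *mt-Nd4l* and *mt-Nd4* (M:5328 to 11544). The eighth, *Gm13340* on chromosome 2, a copy of *mt-Co1* that differs at 37 of 1545 bases, was at a mean of 2.34 CPM.

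The copies were identical or nearly so to their mitochondrial genes. *Gm28661* matched *mt-Co2* at all of its 681 bases, *Gm10925* matched *mt-Atp6* at all 678, *Gm28437* matched *mt-Co3* at all 783, *Gm10222* matched *mt-Nd4l* at all 294 and *Gm28439* matched the first 876 bases of *mt-Nd4*. *Gm28438* differed from *mt-Nd3* at 1 of 345 bases, T3C, counted from 1 at the first base of the gene. The first 17 bases are shown for *mt-Nd3* (chrM:9459-9475, plus strand) and the copy (chr1:24613103-24613119, minus strand), read 5′ to 3′ along the gene from the GENCODE transcripts, with the differing base in capitals because the pair is otherwise identical along the whole copy.
mt-Nd3: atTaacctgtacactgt
Gm28438: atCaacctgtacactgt

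*Gm29216* covers the last 492 bases of *mt-Co1*. It differed at 6 bases, all within the first 40, and was identical over its last 479 bases. The 40 bases that hold the differences, in capitals, are those of *mt-Co1* (chrM:6381-6420, plus strand) and *Gm29216* (chr1:24616158-24616197, minus strand).
mt-Co1: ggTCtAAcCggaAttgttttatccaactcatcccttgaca
Gm29216: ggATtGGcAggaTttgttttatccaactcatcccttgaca

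For *mt-Co2*, the annotated gene and copy differ in length only. The last 30 bases of *mt-Co2* (chrM:7667-7696, plus strand) end in a stop codon, in capitals, that lies beyond the annotated end of *Gm28661* (chr1:24614885-24614911, minus strand). *mt-Atp6*, *mt-Nd4l* and *mt-Nd3* likewise run 3 bases past their copies, and *mt-Co3* 1 base.
mt-Co2: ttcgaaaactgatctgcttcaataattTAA
Gm28661: ttcgaaaactgatctgcttcaataatt

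RSEM splits a read among all genes it matches, and it gave most of the reads of 5 such pairs to the nuclear copy. *mt-Co2*, a core subunit of complex IV, received 5.77 to 12.0% of the counts of the pair over the 16 libraries. The share was 5.25 to 13.0% for *mt-Atp6* (a proton channel subunit of the ATP synthase), 9.15 to 23.9% for *mt-Co3* (complex IV), 14.4 to 32.5% for *mt-Nd3* and 22.8 to 38.1% for *mt-Nd4l* (both complex I). The mitochondrial gene kept 85.9 to 88.4% for *mt-Co1*, the catalytic subunit of complex IV, and 99.8 to 99.9% for *mt-Nd4*. The chromosome 1 copies of both span only part of the gene, 492 of 1545 bases for *mt-Co1* and 876 of 1378 for *mt-Nd4*. Within untreated hepatocytes the share of *mt-Co3* was 16.0, 17.9 and 19.6% in A, B and C and 9.15% in D, and that of *mt-Nd3* was 32.4, 32.5 and 25.7% in A, C and D and 14.4% in B. The split thus varied up to 2.61-fold between libraries for *mt-Co3* and 2.26-fold for *mt-Nd3* with identical or nearly identical sequence on both sides. The plot of the split shows that the treatments overlapped for *mt-Co2*, *mt-Atp6*, *mt-Co3*, *mt-Nd3* and *mt-Nd4l*.

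**Figure D1:**
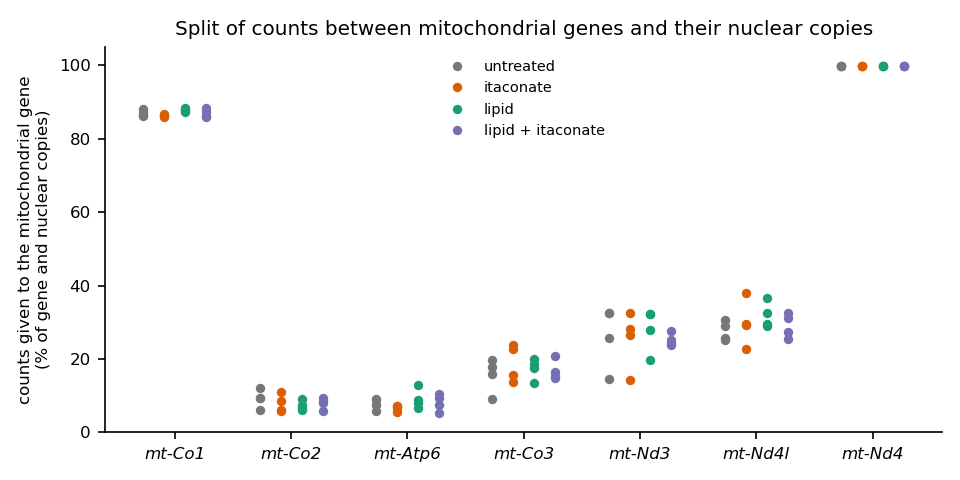
Counts given to the mitochondrial gene, as a percent of the counts of the gene and its nuclear copies (vertical axis). The 7 genes with a copy of at least 1 CPM are in map order (horizontal axis). Each point is 1 of 16 libraries, coloured by treatment. *mt-Co1* and *mt-Nd4* lie above 85.9%, and the other 5 genes lie between 5.25 and 38.1%.

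The deposited counts of these 7 genes therefore hold a varying part of the reads that fit them. Each level and comparison below is given for the counts as deposited and, for the 7 genes, also with the counts of their copies added. Copies below 1 CPM are included in the sum. The sum counts every read that fits either place. It cannot separate organelle RNA from RNA of the nuclear copies, whose own transcription was not measured.

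The 37 genes together held 3.27 to 6.01% of the counts of a library (median 4.13%), and 4.50 to 7.66% with the copies added (median 5.49%). With copies, untreated hepatocytes had a share of 4.96 ± 0.269% (SD, n = 4), itaconate-treated hepatocytes of 5.54 ± 0.713%, those given lipid of 5.50 ± 0.692% and those given both of 6.27 ± 1.03%. The itaconate range (4.50 to 6.10%) overlapped that of untreated cells (4.78 to 5.36%), and the lipid range (4.57 to 6.07%) overlapped both of these and that of lipid + itaconate (5.43 to 7.66%). The lipid + itaconate libraries all lay above the untreated ones, and lipid + itaconate was above lipid in 4 of 4 letters. The copies alone were 1.12 to 1.21% of the counts in untreated and 1.23 to 1.51% in itaconate-treated hepatocytes, and these ranges did not overlap. With lipid the copies were at 1.11 to 1.39%, and with lipid + itaconate at 1.43 to 1.66%.

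Levels differed widely along the genome even though most genes share a precursor (28 genes lie on the plus strand and 9 on the minus strand). Per kilobase of gene, with copies added, *mt-Co1* was highest in untreated hepatocytes, at 12806 ± 880 CPM per kb (SD, n = 4). *mt-Co2* followed at 5022 ± 129, *mt-Atp6* at 4678 ± 501 and *mt-Co3* at 4263 ± 536 CPM per kb, with overlapping ranges. For both *mt-Atp6* and *mt-Co3*, every library but A lay below all of *mt-Co2*. *mt-Atp6* was above *mt-Co3* in all 4 letters. *mt-Nd4* (3322 ± 302), *mt-Nd1* (3071 ± 135), *mt-Nd2* (2775 ± 192) and *mt-Atp8* (2675 ± 345 CPM per kb) came next. Their ranges overlapped between neighbours, though *mt-Nd1* was above *mt-Nd2* in all 4 letters.

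*mt-Rnr1* (1948 ± 263), *mt-Cytb* (1840 ± 76.8), *mt-Rnr2* (1762 ± 263) and *mt-Nd4l* (1728 ± 244 CPM per kb) had overlapping ranges, and within letters *mt-Rnr1* was above *mt-Rnr2* in all 4 letters. The rRNAs, which are far more abundant than the messages inside mitochondria but carry only short adenine tails, stood among the lower messages in these poly(A)-selected libraries. *mt-Nd5* was lower at 1201 ± 131 CPM per kb, and *mt-Nd3* lower again at 507 ± 87.1 CPM per kb. *mt-Nd6*, the single message of the minus strand and a complex I subunit, was lowest at 23.5 ± 4.32 CPM per kb. The same 3 genes were lowest in every group. These levels are of RNA captured by its adenine tail, and differences in the tails between messages, *mt-Nd6* included, were not measured.

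**Figure D2:**
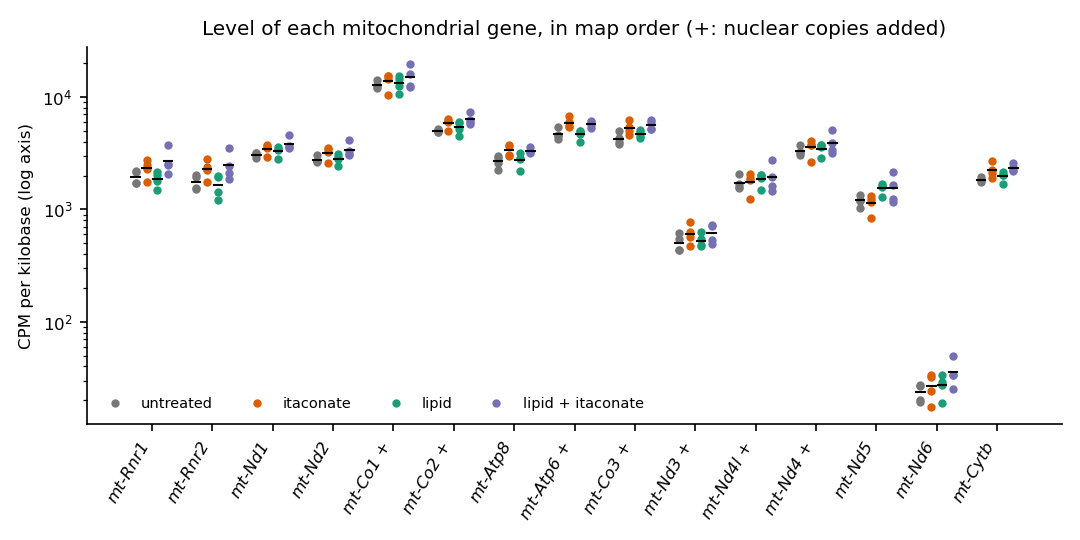
Level of the 15 mitochondrial genes of at least 1 CPM in CPM per kilobase of gene (vertical axis, logarithmic), in map order (horizontal axis), with nuclear copies added where marked by a plus sign. Each point is a library coloured by treatment and each bar is the mean of 4; *mt-Co1* is highest and *mt-Nd6* lowest in all groups.

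In 2 places messages overlap and are kept as 1 RNA in mitochondria. The deposited counts of *mt-Atp8* were whole in every library, and a split of reads across the overlaps was not tested. *mt-Atp8* and *mt-Atp6*, which encode the 2 mitochondrial subunits of the ATP synthase, share 43 bases. These are in capitals in chrM:7907-7989, plus strand, shown since the start of one frame lies inside the other.
mt-Atp8 and mt-Atp6: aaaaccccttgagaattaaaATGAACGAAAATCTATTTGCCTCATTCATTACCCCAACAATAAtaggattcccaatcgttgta

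*mt-Nd4l* and *mt-Nd4* share 7 bases, in capitals in chrM:10147-10193, plus strand, which hold the first codon of *mt-Nd4* and the stop codon of *mt-Nd4l*.
mt-Nd4l and mt-Nd4: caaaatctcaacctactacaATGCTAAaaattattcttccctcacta

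With copies added, *mt-Atp6* had 5.86 ± 0.400 times the counts of *mt-Atp8* in untreated cells (SD, n = 4), 5.89 ± 0.307 times with itaconate, 5.68 ± 0.362 times with lipid and 5.79 ± 0.499 times with both. The ratio of this pair thus stayed within its spread across treatments. *mt-Nd5* and *mt-Nd6* overlap by 14 bases on opposite strands. The kit keeps the strand, but the strand setting of the counting is not given in the sources used here, so a part of the low *mt-Nd6* counts may belong to RNA of the other strand.

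The tRNA genes were hardly seen. Of 22, 18 had 0 counts in every library, and *mt-Tl1*, *mt-Tq*, *mt-Tm* and *mt-Ts1* together had 34 counts over all 16 libraries, with 0 to 9 in a library. A count of 0 allows a level of up to 0.0845 to 0.134 CPM per library (3 counts), which covers counting error only. Capture by the adenine tail does not select mature tRNAs, so these libraries cannot show whether they changed. The 15 other genes passed the filter of a mean of 1 CPM and were tested.

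Itaconate alone was compared with untreated cells in an edgeR quasi-likelihood model of all 16 libraries with treatment and letter as terms, with adjustment of p over all genes tested. Of the 15 mitochondrial genes, *mt-Atp8* and *mt-Cytb*, the subunit of complex III encoded in the organelle, rose. That is 13.3% of the members, beside 4.91% of all 11675 genes called in this comparison (1.96% called higher). Log2 fold changes of the 15 ran from −0.09 to 0.63 with a median of 0.19, 13 of them positive, while the median of all genes was −0.00189. With the nuclear copies added, 5 of 15 rose (33.3% beside 5.16% of genes called, 2.30% called higher): *mt-Atp8*, *mt-Cytb*, *mt-Atp6*, *mt-Co3* and *mt-Nd3*. Of the 15, 14 were then positive. The members come from shared precursors and from the same libraries, so their count is not one of independent genes, and without the letter in the model no member was called.

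*mt-Cytb* stood at 2227, 2086, 2018 and 2088 CPM in untreated A to D and at 3104, 2197, 2430 and 2566 CPM in itaconate-treated A to D. Itaconate was above untreated in all 4 letters, and the groups overlapped by 1 library, itaconate B. On the log2 scale the rise was 0.28 ± 0.072 (SE, edgeR adjusted p = 0.0341). *mt-Atp8* stood at 614, 523, 457 and 589 CPM in untreated and at 759, 625, 607 and 742 CPM in itaconate-treated A to D, again higher in 4 of 4 letters. Its log2 fold change was 0.32 ± 0.087 (SE, edgeR adjusted p = 0.0433).

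*mt-Atp6* gave different results with and without its copy. As deposited it was at 335, 229, 256 and 184 CPM in untreated and at 256, 248, 268 and 289 CPM in itaconate-treated A to D, with a log2 fold change of 0.11 ± 0.172 (SE, edgeR adjusted p = 0.746). With *Gm10925* added it was at 3669, 3073, 2869 and 3133 CPM in untreated and at 4583, 3687, 3736 and 4048 CPM in itaconate-treated A to D. Every itaconate library then lay above every untreated one. The log2 fold change was 0.34 ± 0.066 (SE, edgeR adjusted p = 0.00979), and it was called in all 16 fits that left out 1 library. Groups did not overlap for 7.53% of the genes tested.

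*mt-Co3* went the other way in size. The deposited counts gave the largest fold change of the 15 genes, 0.63 ± 0.206 (SE, edgeR adjusted p = 0.0886), in which untreated D, at 284 CPM, stood below A, B and C at 626, 604 and 584 CPM. With *Gm28437* added, untreated A to D were at 3921, 3370, 2970 and 3107 CPM and itaconate-treated A to D at 4921, 4215, 3589 and 3930 CPM. This made the log2 fold change 0.32 ± 0.065 (SE, edgeR adjusted p = 0.0107), higher in 4 of 4 letters. Untreated D was no longer the lowest library.

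For *mt-Nd3* the standard error fell 4.62-fold, from 0.247 to 0.053, when *Gm28438* was added. Untreated A to D were then at 213, 189, 150 and 153 CPM and itaconate-treated A to D at 270, 218, 165 and 197 CPM. The log2 fold change was 0.27 with copies (edgeR adjusted p = 0.0103, 4 of 4 letters) and 0.26 without (edgeR adjusted p = 0.575). For *mt-Co2* the standard error fell 2.61-fold and the log2 fold change moved from −0.01 to 0.22 (edgeR adjusted p = 0.0829), which missed the threshold although all 4 letters were higher. *mt-Nd4l* stayed near 0, at 0.09 as deposited and 0.00180 with its copy ± 0.125 (SE). *mt-Co1* was at 0.11 ± 0.091 and *mt-Nd4* at 0.09 ± 0.095 with copies (SE), and neither was called.

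**Figure D3:**
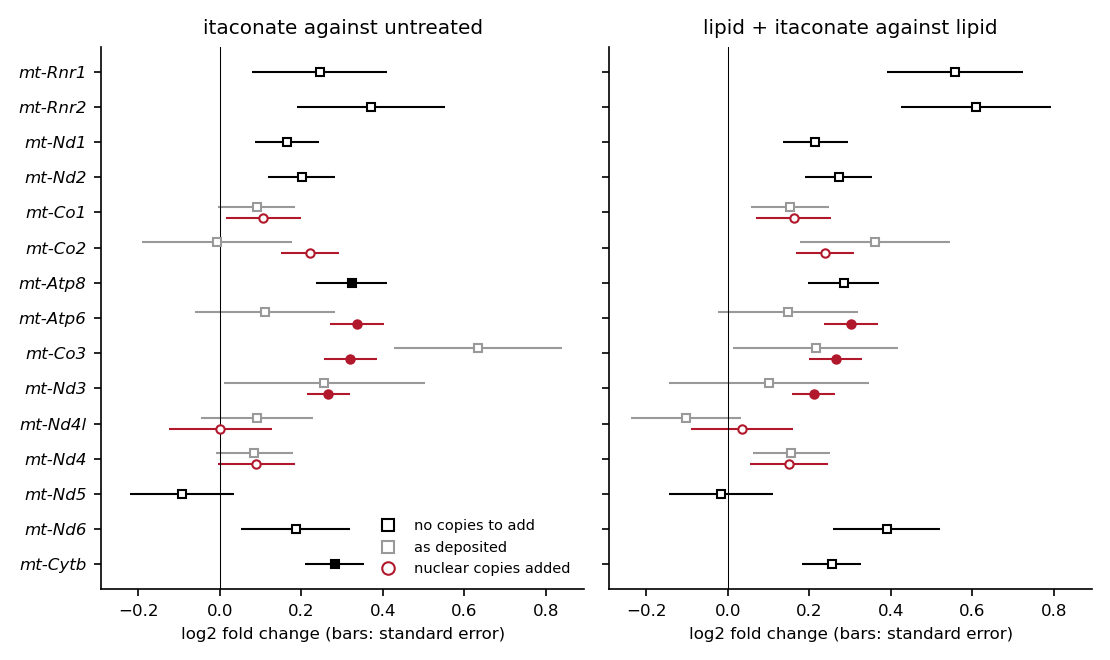
Log2 fold change (horizontal axis, bars are standard errors) of 15 mitochondrial genes in map order for itaconate against untreated (left) and lipid + itaconate against lipid (right). Black squares are the deposited counts of genes without a copy of at least 1 CPM. Grey squares are the deposited counts of the other genes and red circles their counts with nuclear copies added. Filled symbols have an adjusted p under 0.05. The red bars of *mt-Co2*, *mt-Atp6*, *mt-Co3* and *mt-Nd3* are shorter than the grey ones.

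The genes called do not share one place in the respiratory chain. They belong to the ATP synthase (*mt-Atp6*, *mt-Atp8*), complex IV (*mt-Co3*), complex III (*mt-Cytb*) and complex I (*mt-Nd3*). Of the 7 mitochondrial genes of complex I, *mt-Nd1* (2939 ± 129 CPM untreated, 3311 ± 338 with itaconate) and *mt-Nd2* (2880 ± 200 and 3329 ± 427 CPM) were higher in 3 of 4 letters but were not called. *mt-Nd5* was the single gene on the negative side with copies added, at −0.09 ± 0.129 (SE), from 2190 ± 240 CPM to 2089 ± 388 CPM. The rRNAs were higher in 4 of 4 letters but not called: *mt-Rnr1* went from 1861 ± 251 to 2216 ± 417 CPM and *mt-Rnr2* from 2788 ± 416 to 3628 ± 686 CPM (edgeR adjusted p = 0.412 and 0.251). For *mt-Rnr2* this hung on lipid + itaconate B, a library outside this comparison. Without it the standard error fell from 0.182 to 0.086 at a log2 fold change of 0.37 (edgeR adjusted p = 0.0213). No fit that left out 1 library called *mt-Rnr1*. In a fit of only the libraries compared, both rRNAs, *mt-Nd1* and *mt-Nd2* were called. *mt-Rnr2* over *mt-Rnr1* was 1.47 to 1.55 in untreated and 1.57 to 1.68 in itaconate-treated libraries, without overlap, but the ranges overlapped with lipid (1.32 to 1.58) and lipid + itaconate (1.36 to 1.62), where letter C fell from 1.58 to 1.36. This ratio was not tested.

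The calls of the itaconate comparison were close to the threshold. *mt-Atp8* lost its call when any 1 of the 8 untreated or itaconate libraries was left out (adjusted p 0.0680 to 0.146 in edgeR's test). *mt-Cytb* lost it without untreated A, C or D or itaconate A, C or D (0.0655 to 0.118), *mt-Nd3* with copies without untreated D or itaconate D (0.0509 and 0.0528), and *mt-Co3* with copies without untreated D (0.0516). The fold changes kept their sign in all of these fits.

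The same question in the presence of lipid, lipid + itaconate against lipid, gave 0 called members on the deposited counts by edgeR, against 2.58% of genes (1.32% called higher). At an unadjusted p under 0.05 the count was 7 of 15 (46.7%, beside 17.3% of genes), and DESeq2 called 3 (*mt-Nd2*, *mt-Atp8* and *mt-Cytb*). With copies added, *mt-Atp6*, *mt-Co3* and *mt-Nd3* rose (3 of 15 members, beside 2.66% of genes called and 1.27% called higher), and 14 of 15 fold changes were positive with a median of 0.25. For no member was a difference between the itaconate effects with and without lipid called: the interaction had 0 called members by edgeR and 0 at an unadjusted p under 0.05, beside 0.00857% and 8.60% of genes, and likewise with copies (0.0171% and 8.76%). The standard errors of the interaction, 0.075 to 0.257 with copies, set what could be seen. The log2 fold changes for *mt-Atp6* with its copy were 0.34 and 0.30 in the 2 itaconate comparisons. These set different libraries against each other, but both come from 1 fit with shared letter terms and a shared estimate of the spread. They are therefore not separate tests.

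*mt-Atp6* with its copy was at 3406, 2716, 3215 and 3404 CPM in lipid-treated A to D and at 4154, 4125, 3813 and 3640 CPM in lipid + itaconate-treated A to D, so that the groups did not overlap (5.81% of genes did not). Its log2 fold change was 0.30 ± 0.067 (SE, edgeR adjusted p = 0.0283), with the edgeR adjusted p at 0.0553 to 0.0857 without lipid A, lipid B, lipid + itaconate A or lipid + itaconate B. *mt-Co3* with its copy was at 3983, 3369, 3514 and 3835 CPM with lipid and at 4740, 4915, 4059 and 4057 CPM with lipid + itaconate, also without overlap. The log2 fold change was 0.26 ± 0.065 (SE, edgeR adjusted p = 0.0423). *mt-Nd3* with its copy was at 218, 188, 163 and 167 CPM with lipid and at 254, 250, 170 and 187 CPM with lipid + itaconate, higher in 4 of 4 letters with overlapping groups. It rose by 0.21 ± 0.053 (SE, edgeR adjusted p = 0.0473). The calls of *mt-Co3* and *mt-Nd3* lay at the threshold: they were lost in 14 and 13 of the 16 fits that left out 1 library, controls included. *mt-Cytb* did not overlap between the groups either, at 1936 to 2473 CPM with lipid and 2497 to 2960 CPM with lipid + itaconate, but its edgeR adjusted p was 0.0701.

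The largest fold changes in this comparison were those of the rRNAs, and they rested on 1 library. *mt-Rnr2* was at 2259, 1938, 3043 and 3166 CPM in lipid-treated A to D and at 2928, 5578, 3305 and 3869 CPM in lipid + itaconate-treated A to D. Library B was the lowest of its group with lipid and by far the highest with lipid + itaconate. The log2 fold change was 0.61 ± 0.184 (SE, edgeR adjusted p = 0.0884) with all libraries and 0.28 without lipid + itaconate B. *mt-Rnr1* moved in the same way, from 0.56 to 0.26, with lipid + itaconate B at 3602 CPM and A, C and D at 1965 to 2433 CPM. In lipid + itaconate B the protein-coding genes with copies, of which *mt-Co1* has the most counts, held 4.67% of the counts, the lowest of its group, and the rRNAs stood at 0.187 of their counts, against 0.0850 to 0.112 in A, C and D. Of 13 protein-coding genes with copies, the ratio of lipid + itaconate to lipid was largest in letter B for 7 and in letter C for 6. The log2 ratio of lipid + itaconate B to lipid B was 0.84 for *mt-Nd6*, 0.60 for *mt-Atp6* and 0.54 for *mt-Co3*, beside 1.53 for *mt-Rnr2*. *mt-Rnr2* was called without lipid + itaconate C (0.71, edgeR adjusted p = 0.0342).

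**Figure D4:**
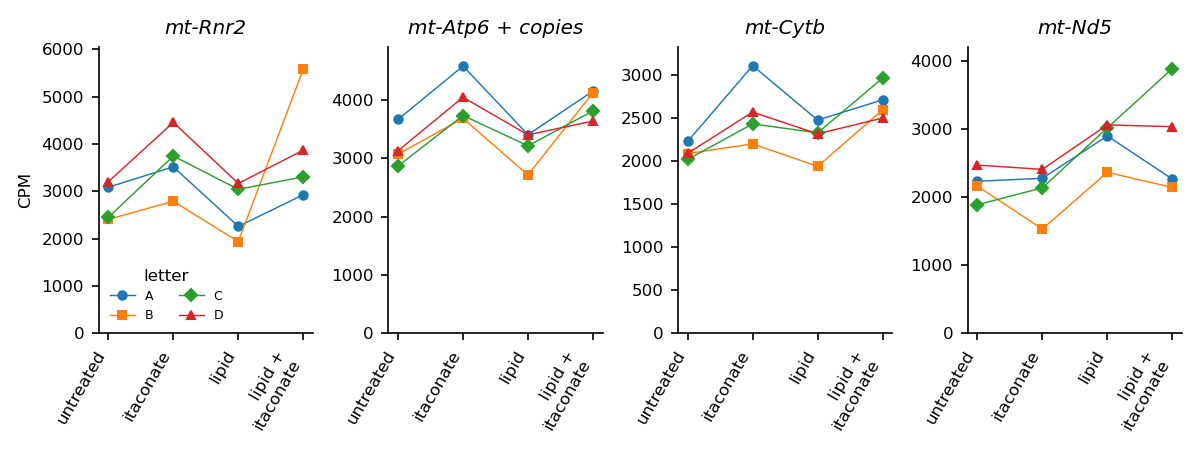
CPM (vertical axes, from 0) of *mt-Rnr2*, *mt-Atp6* with its nuclear copy, *mt-Cytb* and *mt-Nd5* in the 4 treatments (horizontal axis), with lines joining libraries of the same letter. The B library of lipid + itaconate stands highest for *mt-Rnr2* at 5578 CPM, and *mt-Nd5* is higher with lipid than untreated in every letter.

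Lipid changed far more of the genome than itaconate. Between lipid-treated and untreated hepatocytes 47.5% of all genes were called (23.8% higher), but 1 of 15 mitochondrial genes (6.67%) with or without copies (47.9% of genes called with copies, 24.4% higher): *mt-Nd5*, a large complex I subunit. It was at 2234, 2164, 1889 and 2472 CPM in untreated A to D and at 2900, 2366, 3018 and 3063 CPM in lipid-treated A to D. It rose in 4 of 4 letters, with lipid B inside the untreated range. The log2 fold change was 0.36 ± 0.128 (SE, edgeR adjusted p = 0.0303), and the call was lost without untreated A, C or D or lipid A or B (0.0537 to 0.139) and by DESeq2. The other 14 log2 fold changes ran from −0.23 to 0.31 as deposited (median 0.08) and from −0.11 to 0.21 with copies (median 0.07).

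Lipid + itaconate against itaconate compares the other 8 libraries within the same fit, so it is not a separate test. Here 47.0% of genes were called (23.5% higher) and 2 of 15 members (13.3%), *mt-Nd5* and *mt-Nd6*. The same 2 were called with copies (47.3% of genes called, 22.8% higher). *mt-Nd5* was at 2278, 1532, 2137 and 2409 CPM with itaconate and at 2267, 2143, 3889 and 3036 CPM with lipid + itaconate, higher in 3 of 4 letters. The log2 fold change was 0.43 ± 0.128 (SE, edgeR adjusted p = 0.0116), and the call was lost without itaconate B (0.0558). *mt-Nd6* was at 12.6, 9.00, 16.9 and 17.5 CPM with itaconate and at 13.2, 17.5, 25.8 and 17.4 CPM with lipid + itaconate, which is higher in 3 of 4 letters. Its log2 fold change was 0.40 ± 0.130 (SE, edgeR adjusted p = 0.0183), and it was lost without itaconate B or C or lipid + itaconate B or C (0.0587 to 0.0897).

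*mt-Nd5* moved apart from its neighbour *mt-Nd4*, which lies upstream in the same precursor. *mt-Nd5* over *mt-Nd4* was 0.421 to 0.528 in untreated cells, 0.411 to 0.440 with itaconate, 0.587 to 0.600 with lipid and 0.485 to 0.563 with both. Every lipid library lay above every untreated one, and every lipid + itaconate library above every itaconate one. The ratio was lower with itaconate than without in all 4 letters, both without and with lipid, but the itaconate range overlapped that of untreated cells. The lipid libraries had a spread of 0.00581 (SD, n = 4) around 0.594. Over *mt-Cytb*, which lies downstream on the same strand, *mt-Nd5* was also higher in every letter in both lipid comparisons, but the groups overlapped. For *mt-Nd5* over *mt-Cytb*, lipid A, at 1.17, lay below untreated D. Lipid + itaconate A and B, at 0.837 and 0.827, lay within the itaconate range (0.697 to 0.939). These ratios were chosen after the fold changes were seen and are given as a description.

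**Figure D5:**
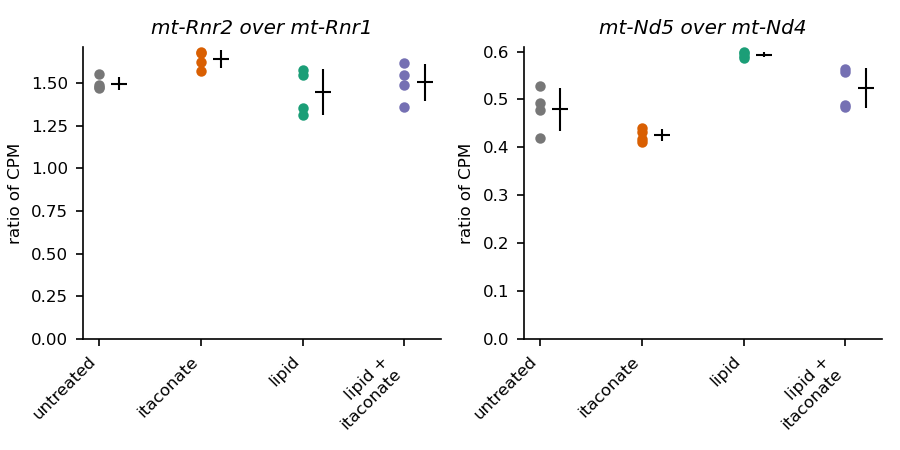
Ratio of the CPM of *mt-Rnr2* to *mt-Rnr1* (left) and of *mt-Nd5* to *mt-Nd4* (right), vertical axes from 0, in the 4 treatments; points are libraries and black marks the mean with its SD (n = 4). The 4 lipid libraries lie at 0.587 to 0.600 for *mt-Nd5* over *mt-Nd4*, above all untreated libraries.

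The nuclear genes that build the same complexes were compared as a list: 72 subunits of complexes I, III, IV and the ATP synthase, of which 71 were tested. In neither itaconate comparison was any called in either direction. Their log2 fold changes had medians of 0.01 and 0.02 and ran from −0.21 to 0.14 over both, beside medians of 0.22 and 0.25 for the 15 mitochondrial genes with copies. With lipid, 7 rose and 11 fell against untreated, and 5 rose and 9 fell against itaconate. These are 25.4 and 19.7% of the list, beside 47.5 and 47.0% of all genes called. Complex I, with 36 of the 71 genes tested, supplied most of these, and 36.1 and 22.2% of its genes were called. *Ndufb4* rose by 0.39 and *Ndufa8* by 0.33, while *Ndufs8* was at −0.30 and *Ndufb2* at −0.22 (lipid against untreated). *Ndufa8* and *Ndufc2* rose with lipid + itaconate against itaconate (0.31 and 0.26), where *Ndufb2* and *Ndufb11* were at −0.24 and −0.23. Of complex III, *Uqcr10* and *Uqcrh* rose against untreated (0.21 and 0.14) and *Uqcrh* against itaconate (0.13). Of complex IV, *Cox6a1* and *Cox7c* fell against untreated (−0.22 and −0.14) and against itaconate (−0.19 and −0.16). Of the ATP synthase, *Atp5b*, a catalytic subunit, fell in both lipid comparisons (−0.16 and −0.15), and against itaconate *Atp5d* rose (0.13) and *Atp5h* fell (−0.14). Leaving out 1 library ended the calls of *Ndufb2*, *Uqcrh* and *Cox7c* in both lipid comparisons, of *Uqcr10* against untreated and of *Atp5b*, *Atp5d* and *Atp5h* against itaconate (adjusted p up to 0.165 in edgeR's test). *Uqcrh* and *Atp5d* against itaconate lost theirs in 12 and 11 of 16 such fits.

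The nuclear genes that transcribe mitochondrial DNA were not called with itaconate. None of the 10 tested genes of the transcription list passed in either itaconate comparison. *Tfam*, which packages the genome and starts transcription, was at 0.02 ± 0.048 (SE) with itaconate alone and 0.09 with itaconate over lipid, and *Polrmt*, the RNA polymerase, at 0.07 and −0.01. With lipid, *Tefm*, the elongation factor of that polymerase, rose by 0.48 and 0.36 in the lipid comparisons. *Mterf4* rose by 0.38 against untreated and *Mterf1a* by 0.51 against itaconate, where *Tefm* and *Mterf1a* lost their calls in 5 and 4 of the 16 fits that left out 1 library.

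Of 10 tested regulators of biogenesis, 2 rose with itaconate alone, where 1.96% of all genes were called higher. *Ppargc1a*, a coactivator of genes of mitochondrial biogenesis, went from 3.23 ± 0.340 to 5.19 ± 0.358 CPM (SD, n = 4), which is 0.69 ± 0.141 (SE, edgeR adjusted p = 0.0121, higher in 4 of 4 letters). *Yy1*, a transcription factor with many targets, rose by 0.21 (edgeR adjusted p = 0.0207). With lipid present *Ppargc1a* was at 0.34 (edgeR adjusted p = 0.255), and the difference of its effects was not called (interaction, edgeR adjusted p = 0.666). *Ppargc1a* was lower with lipid + itaconate than with itaconate, by −0.63 on the log2 scale. In the lipid comparisons 4 of the 10 regulators were called against untreated and 5 against itaconate, beside 47.5 and 47.0% of all genes. *Esrra* rose and *Crebzf* fell in both lipid comparisons (0.27 and 0.16, −0.30 and −0.50), and *Yy1* fell against untreated (−0.29). The itaconate call of *Ppargc1a* was lost without itaconate C (edgeR adjusted p = 0.0596), and that of *Yy1* without untreated B, C or D or itaconate C or D (0.0567 to 0.109). *Esrra* against itaconate lost its call in 6 of 16 such fits. Without the letter in the model the edgeR adjusted p for itaconate alone was 0.0716 for *Ppargc1a* and 0.177 for *Yy1*.

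*Pnpt1*, a ribonuclease that degrades mitochondrial RNA, fell with itaconate alone, from 63.1 ± 8.11 to 50.03 ± 4.55 CPM (SD, n = 4). Its log2 fold change was −0.33 ± 0.062 (SE, edgeR adjusted p = 0.00688), lower in 4 of 4 letters, and it was the single gene called of 7 in the RNA stability list (4.91% of all genes were called). It was called in all 16 fits that left out 1 library but not without the letter in the model (edgeR adjusted p = 0.124). It also fell with lipid against untreated (−0.24), and with itaconate over lipid it was at −0.10 (edgeR adjusted p = 0.433). In the same list 3 of 7 genes were called with lipid against untreated and 2 against itaconate, beside 47.5 and 47.0% of all genes. *Mtpap*, which adds adenine tails to mitochondrial RNA, rose with lipid by 0.31 and 0.26, and *Pde12*, which removes them, by 0.21 and 0.19 (against untreated and against itaconate). *Lrpprc*, which protects mitochondrial messages, was at −0.07 and −0.08 in the itaconate comparisons and was not called.

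Among 26 genes of mitochondrial RNA processing, *Elac2*, which cuts the 3′ ends of tRNAs from the precursor, fell with itaconate over lipid (−0.22, edgeR adjusted p = 0.0472), a call that was lost in each of the 16 fits that left out 1 library (0.0508 to 0.133), and none was called with itaconate alone. With lipid 11 rose and 2 fell against untreated, and 8 rose and 3 fell against itaconate, 13 and 11 of the 26, close to the 47.5 and 47.0% of all genes called. *Mrm2*, which methylates the large rRNA, rose most, by 0.68 and 0.76. *Trmu* rose against untreated (0.52) and *Ptcd1* against itaconate (0.47). *Nsun4*, which acts on the small rRNA, fell by 0.70 and 0.58, *Tbrg4* fell by 0.14 against untreated (lost in 7 of 16 such fits) and *Fastkd3* by 0.28 against itaconate.

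Of 12 genes of mitochondrial DNA replication, *Slc25a33*, a pyrimidine nucleotide carrier of the inner membrane, rose with itaconate alone, from 52.7 ± 5.65 to 62.6 ± 2.44 CPM (0.25, edgeR adjusted p = 0.0184). The call was lost without untreated D, itaconate C or itaconate D (0.0786 to 0.0828) and without the letter in the model (0.184). With lipid, 6 rose and 1 fell against untreated, and 5 rose and 1 fell against itaconate, 7 and 6 of the 12, where 47.5 and 47.0% of all genes were called. *Rrm2b* (0.44) and the helicase *Twnk* (0.38) rose and the polymerase *Polg* fell (−0.15) against untreated. *Tk2* (0.40) and *Rnaseh1* (0.32) rose and *Atad3a* fell (−0.16) against itaconate. The calls of *Polg*, *Rnaseh1* and *Atad3a* were lost in 2, 3 and 2 of the 16 fits that left out 1 library (0.0506 to 0.0711). The level of mitochondrial DNA was not measured in these samples.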

How the data were processed

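RNA of 16 libraries of primary mouse hepatocytes was analysed, 4 per treatment. Per the labels, reads were processed with bcl2fastq 2.20, cutadapt 1.18, STAR 2.7.0f, Picard 2.18.26 and RSEM 1.3.1 on mm10 with GENCODE genes. The values deposited by the authors are expected counts per gene from RSEM, without normalization, and 5.41% were not whole (tolerance 0.001). The authors' later normalization, filter and batch removal were not part of these values.

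Here counts were rounded and fitted with edgeR 4.0.16 under R 4.3.3 (TMM, quasi-likelihood test, treatment and letter as terms, Benjamini-Hochberg adjustment, threshold 0.05) on the 11675 genes whose mean reached 1 CPM, which include 15 of the 37 mitochondrial genes. DESeq2 1.42.0 and limma 3.58.1 were alternatives. All 55450 gene IDs were found in GENCODE M21 (GRCm38), the source of positions, lengths and sequences. Nuclear copies were nuclear genes that share at least 50 identical bases with a mitochondrial gene. The counts of all 15 copies, also those below 1 CPM, were added to their mitochondrial genes in a refit of 11667 genes. The letters were taken to pair the libraries because deviations from the group mean correlated in all 24 same-letter pairs (0.144 to 0.469, median 0.263; the 72 other pairs −0.436 to 0.178). The model was also run on simulated counts. These held no letter effect, so they could not check the letter term, on which the calls of members depend.

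The members and gene lists were chosen with earlier results of these data known. Every mitochondrial gene of at least 1 CPM is named, and tRNAs are given by count. Of the nuclear lists, up to 6 genes of smallest p with an adjusted p under 0.05 in an itaconate comparison are named, and for lipid comparisons the 2 largest rises and 2 largest falls. *Tfam*, *Polrmt* and *Lrpprc* were named after their values were seen. Alternatives were no letter term, RLE scaling, no filter, edgeR's filterByExpr, only the libraries compared, DESeq2, limma-trend, library sizes without mitochondrial genes, added nuclear copies, and each library left out. Those with copies added and a second change were chosen after seeing the data.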

Additional observations from a re-analysis of the deposited data

Results flagged for a closer look

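Of 112 groups of 4 libraries looked at, 6 held a library that stood apart by Dixon's criterion, about as many as chance gives at 1 in 20. In the deposited counts *mt-Atp6* was highest in lipid A at 444 CPM, where B, C and D were at 231 to 254 CPM, and *mt-Co3* was lowest in untreated D at 284 CPM. Neither library stood apart with the nuclear copies added. *mt-Nd4* was lowest in lipid B at 3965 CPM (3971 CPM with its copy). The share of counts from mitochondrial genes was highest in untreated D, at 4.14% as deposited and 5.36% with copies. No cause of these values was tested.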

How the results depend on the processing

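Without a replicate block (the letter term) 0 members were called in the 4 comparisons, with or without copies. For itaconate against untreated the count of 2 was 5 with copies added, 8 with no filter and 6 with only the libraries compared (10 with copies). For lipid + itaconate against lipid the count of 0 was 3 with copies, 3 by DESeq2 (7 with copies) and 11 with no filter, and the 3 with copies became 0 with only the libraries compared. For lipid against untreated the count of 1 was 0 by DESeq2 with or without copies, 6 with no filter and 5 with only the libraries compared. For lipid + itaconate against itaconate the count of 2 was 9 with no filter and 1 with only the libraries compared, with or without copies. The interaction had 0, and 3 with no filter. The cause of the higher counts with no filter was not tested. RLE scaling, filterByExpr, limma-trend and library sizes without mitochondrial genes left the deposited counts of calls as they were. With copies added, limma-trend called 2 rather than 3 for lipid + itaconate against lipid, without *mt-Co3*.

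Leaving out 1 library gave 0 to 3 calls for itaconate against untreated (1 to 7 with copies), 0 to 1 for lipid + itaconate against lipid (0 to 4), 0 to 2 for lipid against untreated (0 to 2) and 0 to 3 for lipid + itaconate against itaconate (0 to 3).

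Fold changes turned sign for genes near 0. With itaconate alone, *mt-Co2* (−0.01) was at 0.027 without the block, 0.00282 with no filter and 0.22 with copies, and at −0.21 to 0.15 with a library left out. Leave-out ranges were −0.033 to 0.25 for *mt-Atp6* as deposited, −0.0014 to 0.19 for *mt-Co1*, −0.11 to 0.21 for *mt-Nd4l* (−0.13 to 0.12 with its copy, −0.000428 by DESeq2 and −7.897e-05 with RLE) and −0.22 to 0.025 for *mt-Nd5*. With itaconate over lipid they were −0.024 to 0.33 for *mt-Atp6*, −0.14 to 0.25 for *mt-Nd3*, −0.21 to 0.092 for *mt-Nd5* and −0.14 to 0.12 for *mt-Nd4l* with its copy, which was at 0.036 there and at −0.10 without it. With lipid, *mt-Nd4l* with its copy was at −0.031 to 0.22. Over the 15 genes, leave-out ranges crossed 0 for 7 with lipid against untreated (8 with copies) and for 8 with lipid + itaconate against itaconate (7 with copies), none of them called. The nuclear genes named kept their sign in each alternative run, but some of their calls were lost. Without the letter term these included *Uqcr10*, *Uqcrh*, *Cox7c*, *Polg* and *Tbrg4* against untreated and *Uqcrh*, *Atp5d*, *Atp5h*, *Tefm* and *Atad3a* against itaconate. *Elac2* with itaconate over lipid was lost too. DESeq2 did not call *Uqcrh*, *Atp5d* or *Esrra* against itaconate, and the first 2 were also lost with RLE scaling and with filterByExpr.

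The mean share of counts in untreated cells was 3.32% without the rRNA genes and 3.78% with them. *mt-Nd6*, at 9.00 to 25.8 CPM, had the fewest counts of the genes tested. For the 5 genes whose reads RSEM gave mostly to copies, adding the copies lowered the standard error 1.09- to 4.62-fold with itaconate alone.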
